A study of Mus musculus with 9 samples.

Results

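The 7 genes described here are Foxj3, Bnip3, Ndfip2 and Psip1, chosen as higher, and Dpy19l1, Agfg1 and Kat8, chosen as lower, in the 3 Evi1 HSC libraries than in wild-type (WT) libraries of both sorting gates. They were chosen by these values, out of 55488 listed genes, so the contrast between Evi1 HSC and WT libraries is given for them as a description and without a test. The study sequenced RNA of 100 sorted cells per library from mouse fetal livers (C57BL/6, embryonic day 14.5), in 9 libraries. The 3 Evi1 HSC libraries came from Tie2-Cre::ROSA-Evi1 embryos and were sorted through a haematopoietic stem cell (HSC) gate, positive for CD150, c-Kit and Sca-1 and negative for CD48 and lineage markers (Lin), with GFP required as well. The 3 WT HSC libraries came from ROSA-Evi1 embryos, which carry the ROSA-Evi1 allele without Cre, and were sorted through the same HSC gate without GFP. The 3 WT KL libraries came from the same ROSA-Evi1 genotype and were sorted as c-Kit-positive, Sca-1-negative and Lin-negative (KL), a gate that holds committed progenitors. The Tie2 promoter drives Cre in endothelial cells and in the blood cells that arise from them, so Cre was not restricted to stem cells. GFP and Cre both differ between Evi1 HSC and WT cells, and their parts in any difference cannot be told apart from that of Evi1. The labels give neither the embryo nor the sex behind a library. Ddx3y, a gene of the Y chromosome, was at 17.2 TPM, a length-scaled share of transcripts, in Evi1 HSC replicate 3, 25.3 TPM in WT HSC replicate 1 and 14.1 TPM in WT KL replicate 2, each with Xist, the RNA of the inactive X chromosome, at no more than 0.340 TPM. The other 6 libraries had Ddx3y at 0 and Xist at 194 to 372 TPM. Each group therefore held both male and female libraries, which cannot all come from the same embryo. Whether libraries of the same sex in a group share an embryo is not given, so spreads and p-values cover these libraries only and may in part be technical.

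EVI1, encoded at the Mecom locus, is a zinc finger transcription factor that haematopoietic stem cells need for their maintenance and that is overproduced in some myeloid leukaemias. The 7 genes belong to no single pathway. Foxj3 is a forkhead transcription factor and Psip1 encodes LEDGF, a chromatin reader that tethers the MLL and menin complex to transcribed genes. Bnip3 is a mitochondrial receptor for mitophagy and a textbook target of hypoxia-inducible factors. Ndfip2 is a membrane adaptor that recruits and activates ubiquitin ligases of the NEDD4 family. Kat8, also called MOF, acetylates histone H4 as the catalytic subunit of the MSL and NSL complexes. Dpy19l1 belongs to a family of enzymes of the endoplasmic reticulum that attach mannose to tryptophan, called C-mannosylation. Agfg1 carries an ArfGAP domain and takes part in vesicle traffic.

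Values are TPM as deposited, scaled within each library. TPM keeps no read depth, so the depth is unknown here. Mecom stood at 176 to 210 TPM in Evi1 HSC. Among WT HSC, replicates 1 and 2 had 161 and 114 TPM of Mecom but replicate 3 had 0.0167 TPM, and among WT KL, replicates 2 and 3 had 0.0107 and 0.325 TPM but replicate 1 had 90.8 TPM. Mpo, a granule gene of myeloid progenitors, gave the mirror image, with 579 TPM in WT HSC replicate 3 as labelled and 13.6 TPM in WT KL replicate 1 as labelled. These 2 libraries go against their labels, so results are given for 9 libraries as labelled and for the 7 libraries left without them. Egfp ranged from 23.4 to 27.3 TPM in Evi1 HSC and was at no more than 0.380 TPM in any WT library. The summed levels of all 10 cell type marker lists overlapped between Evi1 HSC and WT libraries.

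Promoters were taken from RefSeq (GRCm38.p6, the 250 bases before each start), where 6 of the 7 genes matched. The 3 shown are those that hold the core letters of the hypoxia response element, ACGTG on either strand, which 16.6% of all 32851 promoters hold. Bnip3 is read on the minus strand of chr7:138909507-138909756, Agfg1 on the plus strand of chr1:82839210-82839459 and Kat8 on the plus strand of chr7:127912267-127912516. Capitals mark ACGTG or its reverse complement CACGT, and in Bnip3 both overlap as CACGTG.
Bnip3: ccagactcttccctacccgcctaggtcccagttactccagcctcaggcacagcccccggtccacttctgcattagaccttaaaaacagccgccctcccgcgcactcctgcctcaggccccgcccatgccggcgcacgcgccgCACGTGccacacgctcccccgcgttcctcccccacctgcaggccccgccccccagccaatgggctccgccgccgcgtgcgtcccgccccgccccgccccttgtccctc
Agfg1: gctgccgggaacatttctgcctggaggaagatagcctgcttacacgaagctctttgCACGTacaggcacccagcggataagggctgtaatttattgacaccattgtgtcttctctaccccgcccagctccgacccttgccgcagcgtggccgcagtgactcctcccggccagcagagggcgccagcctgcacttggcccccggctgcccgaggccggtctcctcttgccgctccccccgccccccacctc
Kat8: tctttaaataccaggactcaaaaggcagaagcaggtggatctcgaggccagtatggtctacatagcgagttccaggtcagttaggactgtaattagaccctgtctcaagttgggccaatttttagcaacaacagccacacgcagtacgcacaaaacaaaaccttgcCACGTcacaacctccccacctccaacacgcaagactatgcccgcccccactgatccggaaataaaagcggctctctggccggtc
The matches start 108 and 107 bases before the start in Bnip3, 194 in Agfg1 and 84 in Kat8. Bnip3 was among the genes chosen as higher, and Agfg1 and Kat8 among those chosen as lower, so genes of both directions hold the letters. A second Kat8 start and the windows of Foxj3, Ndfip2 and Dpy19l1 hold no match. GACAAGATA, a motif of the first zinc finger domain of EVI1 that 0.107% of all promoters hold, was in none of the 6 genes' windows, and neither was GATGAG, a core motif of its second domain that 10.1% hold, nor the GATA motif AGATAA, which 9.99% hold. A match is a string of letters and not a shown site, and these windows leave out distal elements.

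Across all 19461 genes tested, which reached 1 TPM in at least 3 libraries, 995 (5.11%) had all 3 Evi1 HSC libraries above all 6 WT libraries and 832 (4.28%) had them all below. All 7 genes passed that filter. Of the 4 chosen as higher, 3 lay above all 6 WT libraries, and the 3 chosen as lower lay below all 6. Ndfip2 is the exception: its Evi1 HSC libraries lay above the WT HSC libraries but overlapped those of WT KL, so it does not meet the rule it was chosen by. The gap between the nearest Evi1 HSC and WT libraries, as a difference in log2(TPM + 1), was 1.20 in Dpy19l1, 0.71 in Foxj3, 0.50 in Kat8, 0.45 in Psip1, 0.40 in Agfg1 and 0.24 in Bnip3. In Ndfip2 the difference was -0.45, an overlap. Ranked by that gap, Foxj3 stood at 32, Psip1 at 76 and Bnip3 at 220 among the genes above all WT libraries, and Dpy19l1 at 15, Kat8 at 66 and Agfg1 at 97 among those below. Each of these genes therefore stood behind others in its direction, from rank 15 in Dpy19l1 to rank 220 in Bnip3.

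**Figure D1:**
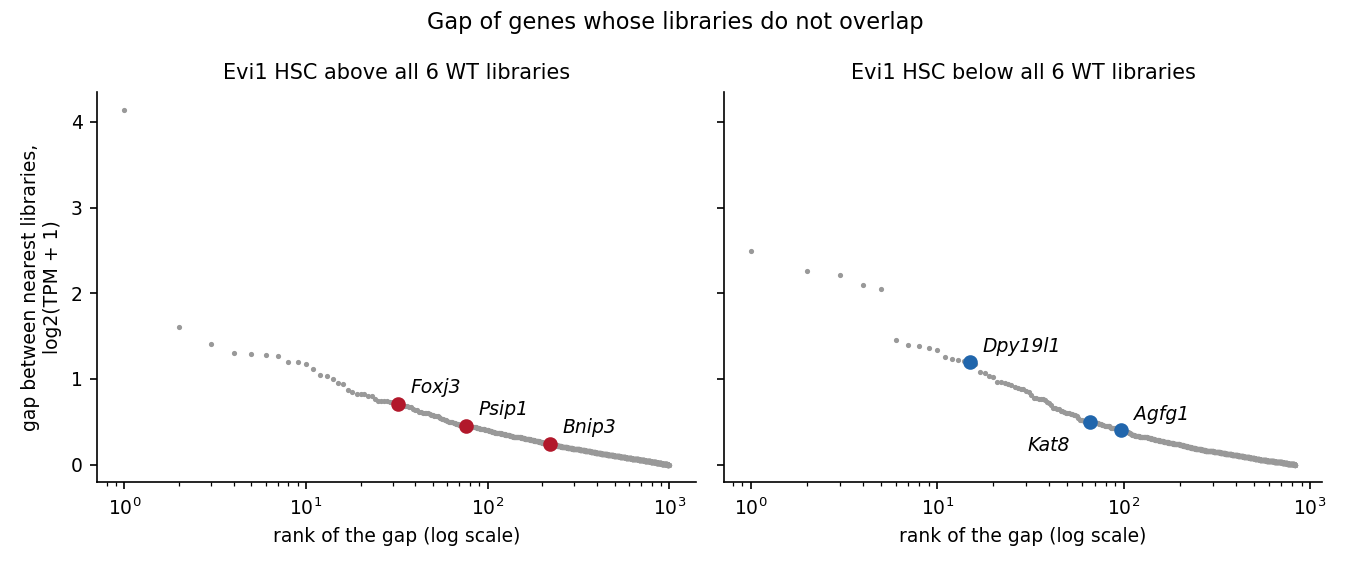
The gap between the nearest Evi1 HSC and WT libraries, in log2(TPM + 1), is plotted against its rank on a log axis, for genes with all 3 Evi1 HSC libraries above (left) or below (right) all 6 WT libraries. Small points are genes tested and large points are the 6 named genes. Dpy19l1 has a gap of 1.20 at rank 15, Bnip3 a gap of 0.24 at rank 220, and Ndfip2 is not shown because its libraries overlapped.

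Foxj3 was listed at 31.5, 28.8 and 13.4 TPM in Evi1 HSC, at 6.21, 6.63 and 5.85 TPM in WT HSC and at 7.76, 6.68 and 5.93 TPM in WT KL. All 6 WT libraries lay close together, and Evi1 HSC replicate 3 stood well under the other Evi1 HSC libraries but above every WT library. It is the male Evi1 HSC library, and the male WT libraries, at 6.21 and 6.68 TPM, lay within the range of the female ones. The part of sex in the spread of Evi1 HSC was not tested. Means were 24.5 ± 9.79 TPM in Evi1 HSC, 6.23 ± 0.392 TPM in WT HSC and 6.79 ± 0.919 TPM in WT KL (SD, n = 3 each), and Evi1 HSC averaged 3.77 times the level of all WT libraries. In log2(TPM + 1) the difference of Evi1 HSC was 1.73 (SE 0.31) from WT HSC and 1.63 (SE 0.31) from WT KL, with 1.70 and 1.72 over 7 libraries. Without Evi1 HSC replicate 3 its gap to the WT libraries was 1.76 in place of 0.71. The gene spans chr4:119537004-119629119 (plus strand, mm10, GENCODE M21 annotation, as for all positions), and none of its 10973 exonic bases is shared with another gene.

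Psip1 had the highest level of the 7 genes in every library but WT KL replicates 2 and 3, where Dpy19l1 was higher. It was listed at 69.2, 60.7 and 56.1 TPM in Evi1 HSC, at 40.7, 37.6 and 27.5 TPM in WT HSC and at 39.8, 36.6 and 36.4 TPM in WT KL. The lowest value was that of the library labelled WT HSC replicate 3, and the other 5 WT libraries spanned 36.4 to 40.7 TPM. Means were 62.0 ± 6.64 TPM in Evi1 HSC, 35.3 ± 6.88 TPM in WT HSC and 37.6 ± 1.90 TPM in WT KL (SD, n = 3 each). The log2(TPM + 1) difference was 0.81 (SE 0.18) from WT HSC and 0.70 (SE 0.18) from WT KL, and 0.65 and 0.74 over 7 libraries. Psip1 spans chr4:83455680-83486459 (minus strand). It shares 483 of its 5082 exonic bases with Snapc3 on the opposite strand, and the sources used here do not say whether strand entered the counting. Snapc3 was at 45.7, 31.1 and 41.1 TPM in Evi1 HSC, at 38.0, 36.4 and 9.67 TPM in WT HSC and at 24.9, 23.6 and 13.6 TPM in WT KL, so its own libraries overlapped.

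Bnip3 was listed at 15.1, 20.7 and 29.1 TPM in Evi1 HSC, at 9.88, 8.14 and 7.79 TPM in WT HSC and at 11.2, 12.4 and 12.6 TPM in WT KL. The Evi1 HSC libraries were spread widely, and the lowest of them stood close above the highest WT KL library. Means were 21.6 ± 7.09 TPM in Evi1 HSC, 8.60 ± 1.12 TPM in WT HSC and 12.0 ± 0.763 TPM in WT KL (SD, n = 3 each). The log2(TPM + 1) difference was 1.19 (SE 0.25) from WT HSC and 0.75 (SE 0.25) from WT KL, and 1.13 and 0.70 over 7 libraries. The gap of 0.24 was 0.67 without Evi1 HSC replicate 1, and after quantile normalization of all libraries the groups overlapped by 0.08 (a gap of -0.08). Bnip3 spans chr7:138890836-138909519 (minus strand). It shares 504 of 2265 exonic bases with the antisense gene Gm45507, which was listed at no more than 0.222 TPM in any library.

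Ndfip2 was listed at 17.3, 12.2 and 14.5 TPM in Evi1 HSC, at 4.54, 7.01 and 3.60 TPM in WT HSC and at 17.0, 11.9 and 9.51 TPM in WT KL. The Evi1 HSC libraries lay above all WT HSC libraries and among those of WT KL. Means were 14.7 ± 2.55 TPM in Evi1 HSC, 5.05 ± 1.76 TPM in WT HSC and 12.8 ± 3.83 TPM in WT KL (SD, n = 3 each). The log2(TPM + 1) difference was 1.40 (SE 0.29) from WT HSC but 0.20 (SE 0.29) from WT KL. The overlap came from the library labelled WT KL replicate 1, whose 17.0 TPM stood near the top of all 9 libraries. Without it the gap was 0.03, and over 7 libraries the differences were 1.22 (SE 0.23) from WT HSC and 0.41 (SE 0.23) from WT KL. Ndfip2 spans chr14:105258573-105309298 (plus strand). Of its 11553 exonic bases, 553 are shared with the pseudogene Gm16259, which was listed at 0 in every library.

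Dpy19l1 differed most among the genes chosen as lower. It was listed at 6.75, 9.73 and 7.66 TPM in Evi1 HSC, at 29.9, 24.4 and 23.6 TPM in WT HSC and at 28.4, 56.9 and 40.4 TPM in WT KL. The highest Evi1 HSC library held well under the 23.6 TPM of the lowest WT library, and WT KL replicates 2 and 3 stood above all others. Means were 8.05 ± 1.53 TPM in Evi1 HSC, 26.0 ± 3.44 TPM in WT HSC and 41.9 ± 14.3 TPM in WT KL (SD, n = 3 each), so that all WT libraries averaged 4.22 times the Evi1 HSC level. The log2(TPM + 1) difference was -1.58 (SE 0.27) from WT HSC and -2.20 (SE 0.27) from WT KL, and -1.65 and -2.45 over 7 libraries. Dpy19l1 spans chr9:24411776-24503140 (minus strand), and none of its 6350 exonic bases is shared.

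Agfg1 was listed at 9.76, 8.51 and 15.0 TPM in Evi1 HSC, at 26.3, 24.4 and 25.2 TPM in WT HSC and at 20.1, 28.4 and 30.5 TPM in WT KL. Evi1 HSC replicate 3 stood nearest to the WT libraries, the same male library that was nearest in Foxj3. The male WT libraries, at 26.3 and 28.4 TPM, lay within the range of the female ones. Means were 11.1 ± 3.44 TPM in Evi1 HSC, 25.3 ± 0.939 TPM in WT HSC and 26.3 ± 5.47 TPM in WT KL (SD, n = 3 each). The log2(TPM + 1) difference was -1.16 (SE 0.24) from WT HSC and -1.19 (SE 0.24) from WT KL, and -1.16 and -1.37 over 7 libraries. Without Evi1 HSC replicate 3 the gap was 0.97 in place of 0.40. Agfg1 spans chr1:82839483-82901182 (plus strand) and has 16 of 8384 exonic bases in common with the miRNA gene Gm22396, listed at 0.674 TPM in WT KL replicate 1 and at 0 in all other libraries.

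Kat8 was listed at 15.4, 14.8 and 17.3 TPM in Evi1 HSC, at 34.4, 28.8 and 26.4 TPM in WT HSC and at 24.9, 33.6 and 26.4 TPM in WT KL. The Evi1 HSC libraries agreed closely with each other, and the WT HSC and WT KL libraries were interleaved. Means were 15.9 ± 1.32 TPM in Evi1 HSC, 29.9 ± 4.13 TPM in WT HSC and 28.3 ± 4.66 TPM in WT KL (SD, n = 3 each). The log2(TPM + 1) difference was -0.87 (SE 0.18) from WT HSC and -0.79 (SE 0.18) from WT KL, and -0.95 and -0.87 over 7 libraries. Kat8 spans chr7:127912516-127925837 (plus strand), and it shares 122 of 2891 exonic bases with Prss8 on the opposite strand, listed at no more than 0.611 TPM.

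**Figure D2:**
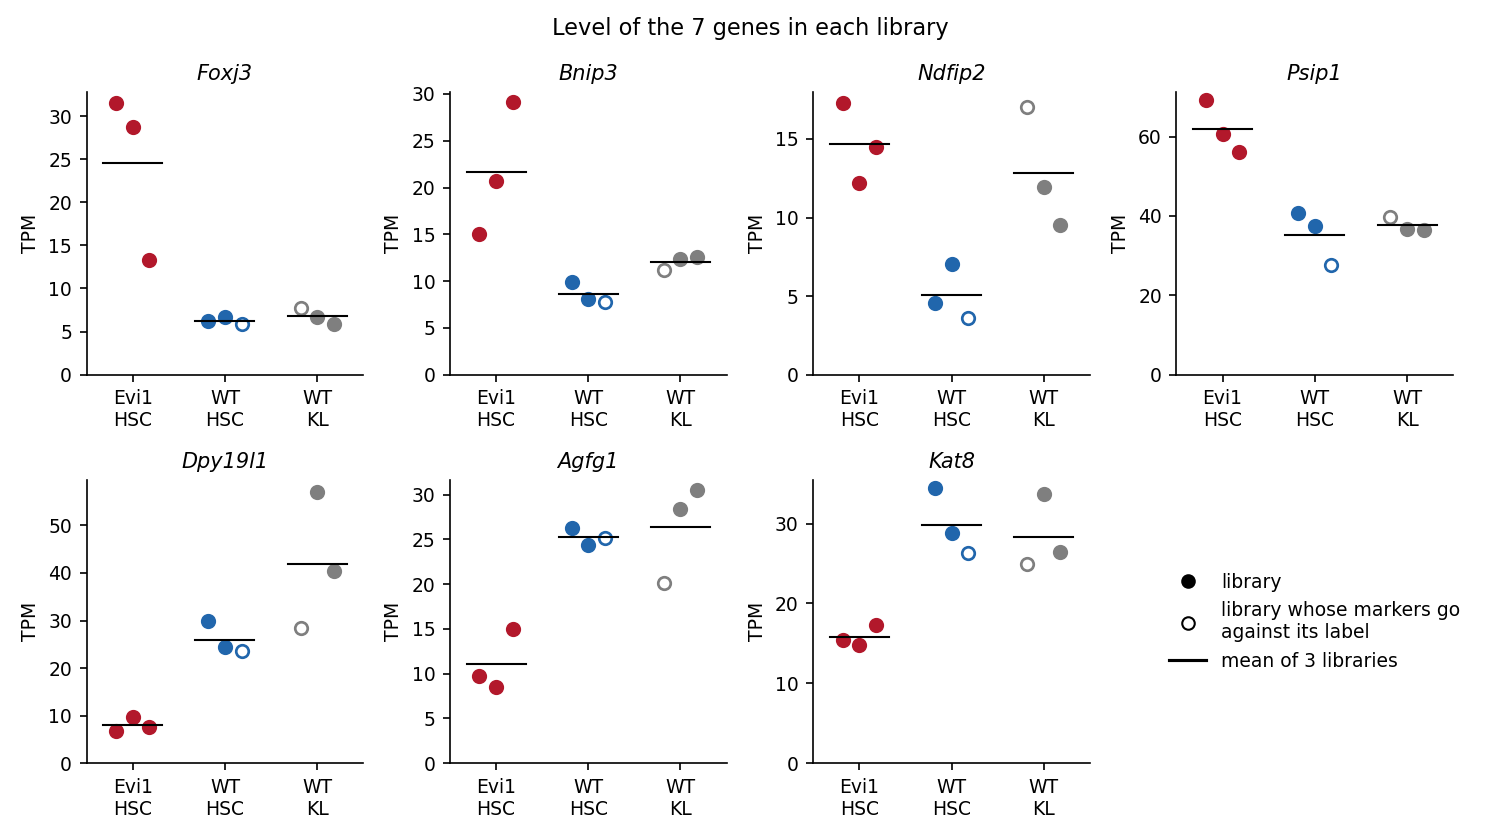
TPM of each of the 7 genes in every library, with Evi1 HSC (red), WT HSC (blue) and WT KL (grey) from left to right and the mean of 3 libraries as a line. Open circles are the library labelled WT HSC replicate 3 and the library labelled WT KL replicate 1. Evi1 HSC lies apart from both WT groups in 6 genes, and in Ndfip2 the WT KL libraries reach 17.0 TPM.

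The median over all genes tested of the difference in mean log2(TPM + 1) was 0.11 for Evi1 HSC from WT HSC and 0.18 for Evi1 HSC from WT KL. After quantile normalization these medians were -0.01 and -0.05, a shift of over 0.1 in log2(TPM + 1). The choice of the 7 genes fixed the direction of their differences, so only sizes are given over the alternatives. For Bnip3 the lowest difference in log2(TPM + 1) was 0.90 from WT HSC and 0.47 from WT KL, and for Ndfip2 it was 0.95 from WT HSC and 0.02 from WT KL.

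**Figure D3:**
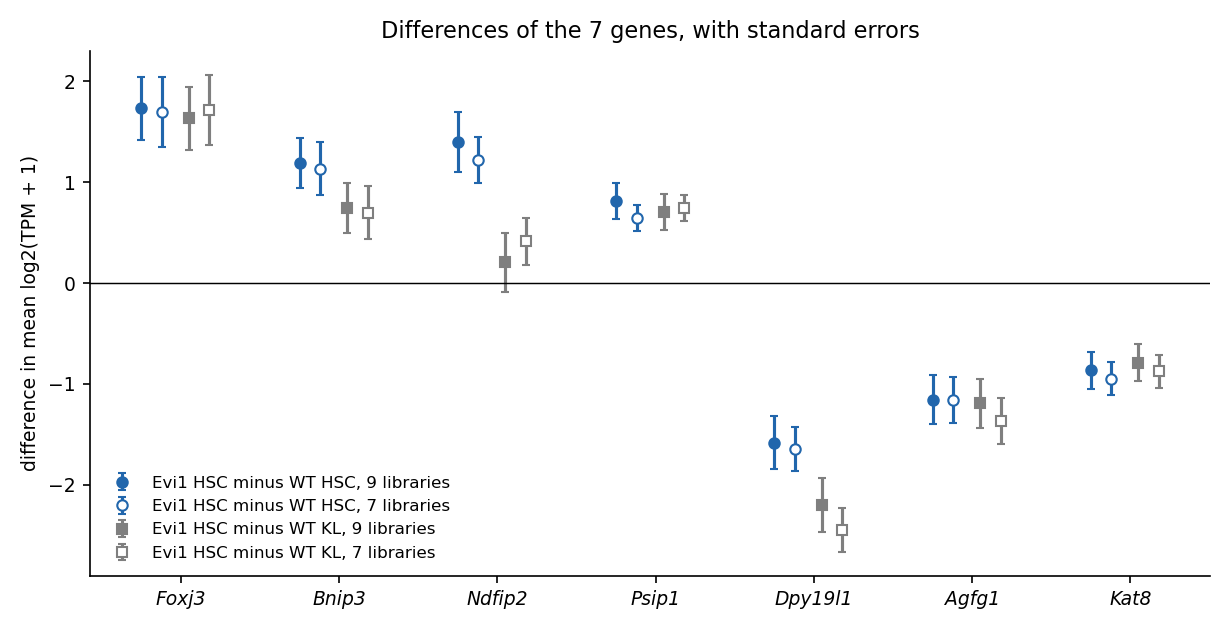
Differences in mean log2(TPM + 1), with standard errors from the fit, of Evi1 HSC from WT HSC (blue circles) and from WT KL (grey squares), over 9 libraries as labelled (filled) and 7 libraries (open). The difference of Ndfip2 from WT KL, 0.20 over 9 libraries, lies within its standard error of 0, and that of Dpy19l1 is the furthest from 0 at -2.45 over 7 libraries.

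Of 10 erythroid markers, 5 lay below all WT libraries (Gata1, Klf1, Epor, Tfrc and Ermap) and none above, beside 4.28% of all genes below and 5.11% above. Alas2, Hbb-bt, Hba-a1 and Slc4a1 overlapped. Klf1, an erythroid transcription factor, was at 2.51, 0.474 and 0.110 TPM in Evi1 HSC, at 23.1, 21.1 and 155 TPM in WT HSC and at 13.6, 147 and 151 TPM in WT KL. Hbb-bt, a beta globin, stood the other way against WT HSC, at 1429, 681 and 861 TPM in Evi1 HSC, at 545, 619 and 350 TPM in WT HSC and at 2280, 187 and 165 TPM in WT KL. The list's summed level overlapped, at 718 to 1752 TPM in Evi1 HSC libraries and 738 to 3566 TPM in WT libraries, and none of its genes was at 0 in all libraries. Their part in the difference of Dpy19l1, Agfg1 and Kat8 was not tested. Of all 75 cell type markers, 6 lay above and 6 below all WT libraries, or 8% each way, and with bulk samples fewer cells of a type and less RNA per cell cannot be told apart.

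Among WT libraries, the genes could be compared between gates by a test that leaves out the Evi1 HSC libraries, although the choice of the genes used the same WT libraries and favours those with a small spread. None of the 7 genes was called between WT HSC and WT KL over 9 libraries by limma with Benjamini-Hochberg adjustment over all genes. The share of all genes called was 0.00514%. An unadjusted p under 0.05 was held by 2 of the 7, beside 282 of all 19461 genes. Over 7 libraries 2 of the 7 genes were called, both lower in WT HSC, beside 37.5% of all genes, of which 26.7% were higher and 10.8% lower. Ndfip2 stood at 4.54 and 7.01 TPM for WT HSC replicates 1 and 2, against 11.9 and 9.51 TPM in WT KL replicates 2 and 3, a log2(TPM + 1) difference of -0.81 (SE 0.25, adjusted p = 0.0445). Dpy19l1 was at 29.9 and 24.4 TPM in these WT HSC libraries, against 56.9 and 40.4 TPM in these WT KL libraries, a difference of -0.80 (SE 0.24, adjusted p = 0.0360). Neither call was firm: each was lost in 7 of 14 alternatives, with adjusted p-values of 0.0130 to 0.195 for Ndfip2 and 0.0328 to 0.184 for Dpy19l1 over all of them. Leaving out WT KL replicate 2 gave the highest p-value for both. Read by their markers rather than their labels, the 2 libraries left out both went against the Ndfip2 difference. WT KL replicate 1, high in Mecom, held 17.0 TPM of it, and WT HSC replicate 3, high in Mpo, held 3.60 TPM. For Dpy19l1, WT KL replicate 1 at 28.4 TPM went with the difference and WT HSC replicate 3 at 23.6 TPM against it. Foxj3, Bnip3, Psip1, Agfg1 and Kat8 had differences of 0.02, -0.44, 0.10, -0.21 and 0.08 over 7 libraries, with adjusted p-values of 0.275 to 0.967. Granulocyte and monocyte markers, 10 genes of which none was at 0 in all libraries, summed to 26.5 to 40.9 TPM in WT HSC replicates 1 and 2, against 626 to 2084 TPM in WT KL replicates 2 and 3, and their part in these differences was not tested.

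For partners and pathways, 8 lists gave 142 genes tested other than the 7. Of these, 10 (7.04%) lay above and 9 (6.34%) below all WT libraries, beside 5.11% and 4.28% of all genes (9.39% in both directions). By limma over 9 libraries none of the 142 was called against WT HSC, where 0.00514% of all genes were called. An unadjusted p under 0.05 was held by 11 of the 142, beside 907 of all 19461 genes. None was called against WT KL, where 0.0103% of all genes were called. There 28 of the 142 had an unadjusted p under 0.05, beside 2956 of all 19461 genes. Against the mean of the WT groups 1 (Adm) was called, where 0.0206% of all genes were. Adm passed the filter only through the Evi1 HSC libraries, where it was high, so its call is not read as an excess in the lists. Over 7 libraries none was called against WT HSC either, where 0.206% of all genes were called. In that fit 15 of the 142 had an unadjusted p under 0.05, beside 1635 of all 19461 genes. Against WT KL over 7 libraries 52 rose and 27 fell (55.6%), beside 45.5% of all genes, of which 31.3% rose and 14.3% fell. Against the mean of the WT groups over 7 libraries 34 rose and 11 fell (31.7%), beside 25.6% of all genes, of which 17.6% rose and 8.09% fell.

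The list around Bnip3 with most separated genes was that of hypoxia response genes. In it 5 of 24 genes tested lay above all WT libraries and none below, beside 5.11% and 4.28% of all genes. The list's median log2(TPM + 1) difference from the mean of the WT groups was 0.39, beside 0.15 over all genes. By limma over 7 libraries none of the 24 was called against WT HSC, beside 0.206% of all genes. Against WT KL 8 were higher and 3 lower (Ldha, Ero1l and Mxi1), beside 31.3% and 14.3% of all genes. Against the mean of the WT groups 7 were higher and 2 lower (Ldha and Ero1l), beside 17.6% and 8.09% of all genes. Adm, which encodes the vasodilator peptide adrenomedullin, was listed at 2.38, 1.62 and 2.47 TPM in Evi1 HSC, at 0.0887 TPM in WT HSC replicate 2 and at 0 in the other 5 WT libraries. It rose against the mean of the WT groups by 1.63 in log2(TPM + 1) (SE 0.18, adjusted p = 0.0487), a size that depends on the pseudocount. Adm passed the filter only through the Evi1 HSC libraries, and the call was lost in 12 of 15 alternatives, over which the adjusted p ranged from 0.00146 to 0.440. It held with no filter on low values, over 7 libraries and without WT KL replicate 1.

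The other 4 separated hypoxia genes were not called over 9 libraries. Egln3, an oxygen-sensing prolyl hydroxylase induced by hypoxia-inducible factors, was at 12.6, 12.7 and 20.5 TPM in Evi1 HSC, at 8.01, 10.01 and 3.56 TPM in WT HSC and at 8.55, 4.47 and 3.11 TPM in WT KL. Vegfa, the vascular growth factor, was at 18.4, 22.0 and 32.9 TPM in Evi1 HSC, at 18.0, 14.1 and 13.1 TPM in WT HSC and at 17.5, 14.4 and 9.68 TPM in WT KL. Slc2a1, the glucose transporter GLUT1, was at 33.7, 41.0 and 56.7 TPM in Evi1 HSC, at 32.6, 30.9 and 19.9 TPM in WT HSC and at 27.0, 19.9 and 21.5 TPM in WT KL. In these 3 genes, as in Bnip3, Evi1 HSC replicate 3, the male Evi1 HSC library, held the highest value. Among WT libraries the male WT HSC replicate 1 was the highest in Vegfa and Slc2a1 but not in Egln3 or Bnip3, and the part of sex was not tested. Pgk1, a glycolytic enzyme, was at 87.8, 118 and 114 TPM in Evi1 HSC, at 66.9, 62.5 and 85.0 TPM in WT HSC and at 70.6, 83.7 and 75.4 TPM in WT KL. The gaps of Vegfa, Slc2a1 and Pgk1 were 0.03, 0.05 and 0.05 in log2(TPM + 1), small beside the spread within the groups. The other 19 genes tested in the list overlapped. P4ha1, a collagen prolyl hydroxylase, was at 10.8, 19.2 and 16.8 TPM in Evi1 HSC, at 4.40, 3.60 and 4.34 TPM in WT HSC and at 4.04, 14.8 and 3.28 TPM in WT KL, so that WT KL replicate 2 alone overlapped. Ldha, another glycolytic enzyme, was at 440, 572 and 555 TPM in Evi1 HSC, at 475, 444 and 996 TPM in WT HSC and at 496, 975 and 966 TPM in WT KL. Hif1a itself, at 12.7, 28.5 and 10.4 TPM in Evi1 HSC, at 29.4, 28.8 and 7.22 TPM in WT HSC and at 22.8, 18.5 and 13.1 TPM in WT KL, overlapped too. ACGTG was in the promoter window of at least 1 start of 4 of the 5 separated genes (all but Adm) and of 11 of the 17 other list genes with an entry (64.7%), beside 18.5% of all 27025 genes. The list was made of known hypoxia response genes, both targets and regulators such as Hif1a and Vhl, so these shares say nothing of a cause.

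**Figure D4:**
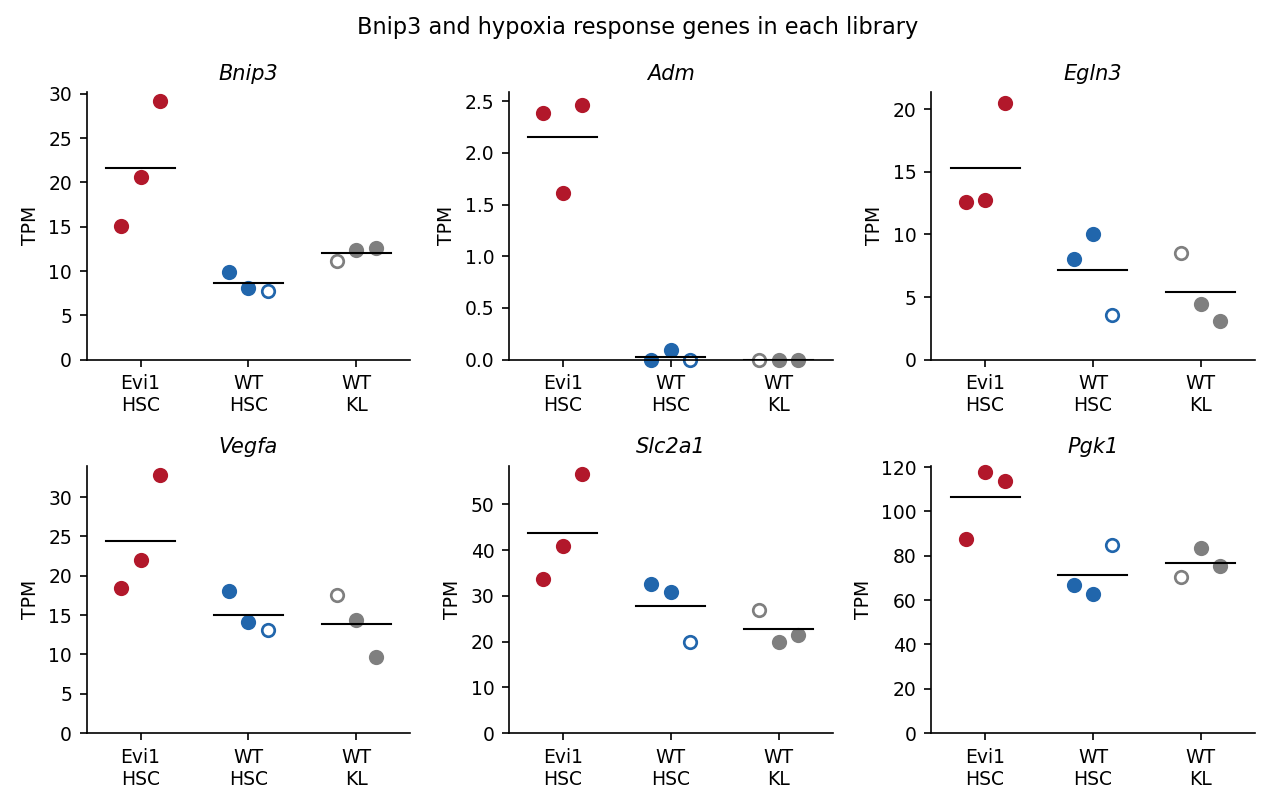
TPM of Bnip3 and of the 5 hypoxia response genes whose 3 Evi1 HSC libraries lay above all 6 WT libraries, shown because of that separation, with Evi1 HSC (red), WT HSC (blue) and WT KL (grey) from left to right, the mean of 3 libraries as a line and the 2 libraries that go against their labels as open circles. Adm is at 1.62 to 2.47 TPM in Evi1 HSC and at or near 0 elsewhere, while in Vegfa the lowest Evi1 HSC library (18.4 TPM) stands just over the highest WT library (18.0 TPM).

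In the mitophagy list, 1 of 19 genes tested lay above and 1 below all WT libraries, beside 5.11% and 4.28% of all genes. Gabarapl2, which couples cargo receptors to autophagosomes, was at 8.78, 9.04 and 7.43 TPM in Evi1 HSC, at 6.64, 6.72 and 4.89 TPM in WT HSC and at 6.96, 6.35 and 4.77 TPM in WT KL. Optn, an autophagy receptor, was at 0.525, 0.653 and 0.458 TPM in Evi1 HSC, at 2.84, 2.11 and 16.1 TPM in WT HSC and at 1.46, 16.5 and 12.3 TPM in WT KL. Bnip3l, the paralogue of Bnip3 that clears mitochondria from maturing red cells, was at 35.3, 40.3 and 36.6 TPM in Evi1 HSC, at 31.2, 41.7 and 15.4 TPM in WT HSC and at 39.2, 23.4 and 20.4 TPM in WT KL. Unlike Bnip3, its Evi1 HSC libraries overlapped those of WT HSC.

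Of the 13 genes tested with Ndfip2 in the list of NEDD4 family ligases and adaptors, Arrdc4 and Txnip lay above and Arrdc2 below all WT libraries. Over all genes the shares were 5.11% above and 4.28% below. Arrdc4, Txnip and Arrdc2 are all of the arrestin-like family. Txnip, a brake on glucose uptake, was at 188, 175 and 246 TPM in Evi1 HSC, at 142, 165 and 19.9 TPM in WT HSC and at 164, 22.5 and 20.998 TPM in WT KL. Arrdc4 was at 12.2, 14.1 and 14.1 TPM in Evi1 HSC, at 9.99, 8.61 and 2.62 TPM in WT HSC and at 9.40, 2.96 and 3.15 TPM in WT KL. Arrdc2 was at 1.43, 3.15 and 2.70 TPM in Evi1 HSC, against 3.63 to 4.75 TPM in WT libraries. Ndfip1, the paralogue of Ndfip2, was at 5.96, 15.1 and 31.4 TPM in Evi1 HSC, at 4.53, 5.19 and 2.26 TPM in WT HSC and at 41.0, 26.0 and 23.2 TPM in WT KL. As labelled, its Evi1 HSC libraries, like those of Ndfip2, lay above WT HSC and overlapped WT KL. The highest Ndfip1 value, 41.0 TPM, was in the library labelled WT KL replicate 1, whose markers go against its label. Between WT HSC and WT KL Ndfip1 differed by -2.13 in log2(TPM + 1) over 7 libraries (SE 0.62, adjusted p = 0.0340), and by -2.65 over 9 libraries (adjusted p = 0.963). Read by their markers, both libraries left out of the 7 went against that difference, with 41.0 TPM in WT KL replicate 1 and 2.26 TPM in WT HSC replicate 3.

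Of the 17 genes tested with Psip1 in the list of the LEDGF family and the MLL and menin complex, Iws1 lay above and Hdgf, Wdr5 and Dpy30 below all WT libraries. Over all genes the shares were 5.11% above and 4.28% below. Iws1, a transcription elongation factor that binds LEDGF, was at 25.8, 32.9 and 27.5 TPM in Evi1 HSC, at 18.0, 15.8 and 17.9 TPM in WT HSC and at 22.7, 19.7 and 15.8 TPM in WT KL. Hdgf, a paralogue of Psip1, stood in the other direction, at 106, 103 and 94.7 TPM in Evi1 HSC, at 133, 125 and 330 TPM in WT HSC and at 124, 334 and 319 TPM in WT KL. Wdr5 and Dpy30, core subunits of histone methyltransferase complexes, had gaps of only 0.04 each in log2(TPM + 1). Kmt2a (MLL), at 46.6 to 53.0 TPM in Evi1 HSC and 15.5 to 52.4 TPM in WT libraries, and Men1 (menin), at 26.1 to 27.9 TPM in Evi1 HSC and 19.1 to 26.2 TPM in WT libraries, overlapped, as did the paralogues Hdgfl2 and Hdgfl3.

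Of the 13 genes tested with Dpy19l1 in the list of C-mannosylation and its mannose supply, Pmm2 and Dpm2 lay below all WT libraries and none above. Over all genes the shares were 4.28% below and 5.11% above. Pmm2, a phosphomannomutase that makes the mannose donor, was at 16.2, 9.34 and 13.9 TPM in Evi1 HSC, at 50.4, 31.1 and 21.03 TPM in WT HSC and at 24.7, 52.0 and 38.3 TPM in WT KL. Its log2(TPM + 1) difference was -1.26 (SE 0.38) from WT HSC and -1.45 (SE 0.38) from WT KL, with adjusted p-values of 0.791 and 0.310. Dpm2, a subunit of dolichol phosphate mannose synthase, was at 17.7 to 20.1 TPM in Evi1 HSC, against 20.6 to 28.7 TPM in WT libraries. Dpy19l3, a paralogue with the same activity, was at 17.6, 21.002 and 17.2 TPM in Evi1 HSC, at 20.7, 17.8 and 6.22 TPM in WT HSC and at 19.3, 2.17 and 2.30 TPM in WT KL. It was lowest in WT KL replicates 2 and 3, where Dpy19l1 was highest. It was also low in the library labelled WT HSC replicate 3, where Dpy19l1 had its lowest WT value, 23.6 TPM. Dpy19l4 overlapped, and Dpy19l2 stayed under the filter, at no more than 0.521 TPM.

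Of the 25 genes tested with Agfg1 in the list of ArfGAPs and endocytic adaptors, Acap1 lay above and Asap1 below all WT libraries. Over all genes the shares were 5.11% above and 4.28% below. Acap1 was at 67.3, 68.4 and 68.9 TPM in Evi1 HSC, at 62.5, 37.0 and 4.15 TPM in WT HSC and at 61.8, 5.81 and 2.40 TPM in WT KL. Asap1 was at 15.4, 13.7 and 7.96 TPM in Evi1 HSC, at 17.1, 30.5 and 65.4 TPM in WT HSC and at 16.8, 56.7 and 67.9 TPM in WT KL. Both are ArfGAPs, and in both the large steps were between WT libraries. Agfg2, the paralogue of Agfg1, was at 4.71 to 6.85 TPM in Evi1 HSC and 5.70 to 17.8 TPM in WT libraries and overlapped.

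Of the 18 genes tested with Kat8 in the list of MSL and NSL complexes and MYST acetyltransferases, Wdr5 and Sirt1 lay below all WT libraries and none above. Over all genes the shares were 4.28% below and 5.11% above. Sirt1, a deacetylase of histone H4, was at 19.1, 22.0 and 19.6 TPM in Evi1 HSC, against 22.2 to 25.7 TPM in WT libraries. Apart from Wdr5, listed here with the NSL complex, no MSL or NSL subunit among the 18 was separated. Neither were the other acetyltransferases of the family, Kat5, Kat6a, Kat6b and Kat7. Kat7, for example, was at 34.8, 38.5 and 44.1 TPM in Evi1 HSC, against 26.5 to 44.1 TPM in WT libraries. Of the 14 genes tested with Foxj3 among forkhead and MEF2 factors none was separated. Foxj2, its paralogue, was at 3.18 to 4.27 TPM in Evi1 HSC and 1.25 to 3.88 TPM in WT libraries, and Foxj1 stayed under the filter, at no more than 0.162 TPM.

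**Figure D5:**
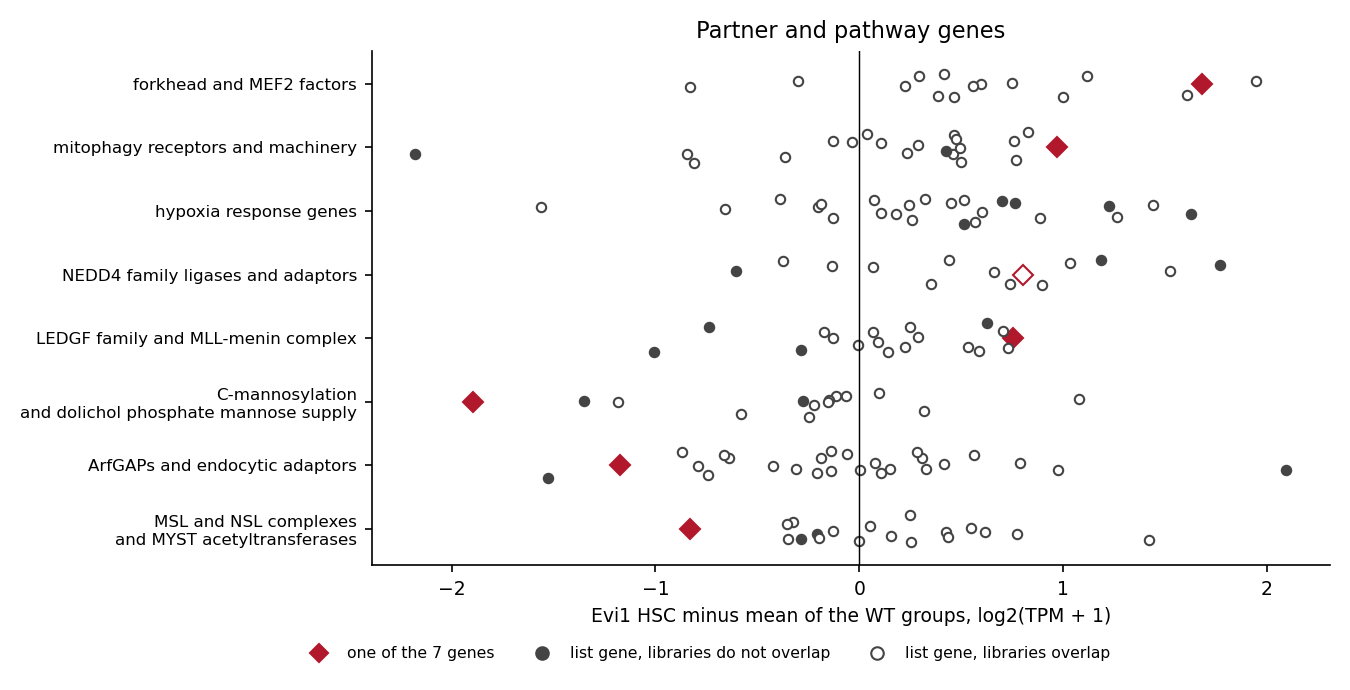
Differences of Evi1 HSC from the mean of the WT groups in log2(TPM + 1), over 9 libraries as labelled, for the genes tested in each of the 8 lists (circles) and for the 7 genes (red diamonds, Ndfip2 open because its libraries overlap). Filled symbols are genes whose 3 Evi1 HSC libraries do not overlap the 6 WT libraries, and position up or down within a list carries no value. Most list genes overlap, with 19 of 142 filled, of which Wdr5 is drawn in 2 lists.

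The neighbours of each of the 7 were examined next. A neighbour here is the nearest protein-coding gene on each side that was tested and does not overlap the gene itself. Untested, noncoding and overlapping genes were passed over, so distances ran from 2295 bases (Bckdk from Kat8) to 1523496 bases (Bbs9 from Dpy19l1). Of 14 neighbours tested, none was called by limma against WT HSC, WT KL or their mean over 9 libraries. The shares of all genes called were 0.00514%, 0.0103% and 0.0206%. An unadjusted p under 0.05 was held by 2, 3 and 3 neighbours, beside 907, 2956 and 2407 of all 19461 genes. Over 7 libraries none was called against WT HSC, where 0.206% of all genes were called. In that fit 3 neighbours had an unadjusted p under 0.05, beside 1635 of all 19461 genes. Against WT KL over 7 libraries 6 were higher (Hivep3, Pwwp2b, Spry2, Ttc39b, Ccdc171 and Bbs9) and none lower, beside 31.3% and 14.3% of all genes. Against the mean of the WT groups over 7 libraries Hivep3, Pwwp2b, Spry2 and Ttc39b were higher and none lower, beside 17.6% and 8.09% of all genes. Of the 14, 3 (Spry2, Hivep3 and Ttc39b) lay above all WT libraries and none below, beside 5.11% and 4.28% of all genes. Spry2, an inhibitor of receptor tyrosine kinase signalling 582649 bases from Ndfip2, was at 9.86, 9.42 and 8.32 TPM in Evi1 HSC, at 4.03, 5.79 and 1.56 TPM in WT HSC and at 4.47, 1.94 and 1.32 TPM in WT KL. Its difference from the mean of the WT groups was 1.40 in log2(TPM + 1) (SE 0.37, adjusted p = 0.386 over 9 libraries and 0.00259 over 7). The gaps of Hivep3, beside Foxj3, and Ttc39b, beside Psip1, were 0.01 and 0.05 in log2(TPM + 1). Bckdk, only 2295 bases from Kat8, was at 15.8 to 21.5 TPM in Evi1 HSC and 16.4 to 23.2 TPM in WT libraries, so it overlapped where Kat8 did not.

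Genes most like each of the 7 were ranked by Pearson correlation of log2(TPM + 1) over the 9 libraries, among 7516 genes with a group mean of at least 10 TPM. These values describe libraries that share the choice of the 7 genes. Closest to Foxj3 was Sfswap (r = 0.96), a splicing regulator, at 55.4, 49.4 and 38.7 TPM in Evi1 HSC and 24.0 to 33.6 TPM in WT libraries. Erdr1 and Gng10 were the next closest to both Foxj3 (r = 0.93 and 0.92) and Psip1 (r = 0.94 and 0.93), and Ehmt2, a histone methyltransferase, was closest to Psip1 (r = 0.94). Rlf was closest to Bnip3 (r = 0.93) and Chml to Ndfip2 (r = 0.91). Prmt9, a protein arginine methyltransferase, was closest to Dpy19l1 (r = 0.98), at 5.07, 6.86 and 5.80 TPM in Evi1 HSC and 12.4 to 20.4 TPM in WT libraries. Fam126a was closest to Agfg1 (r = 0.96), and Pmm2 to Kat8 (r = 0.93). Among the 7 themselves r ranged from -0.98 between Foxj3 and Agfg1 to 0.93 between Agfg1 and Kat8, and the weakest was -0.38 between Ndfip2 and Dpy19l1.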

How the data were processed

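The deposited values are TPM per gene, 1 file per library, per the file headers. In the file of WT HSC replicate 2 the value column is headed C_H3, which no label explains, and it was used as TPM because it holds a like scale. The submitters' processing notes name HISAT2, StringTie and the build mm10. The sources used here do not give their roles or versions, the annotation or the use of strand. Since TPM is relative to gene length and library total, a rise of abundant genes lowers all others. The listed genes held 56.9 to 63.8% of the TPM scale per library.

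Differences are of mean log2(TPM + 1), a scale that shrinks changes of low genes, and were fitted with limma 3.58.1 (R 4.3.3). The fit used the 19461 genes that reached 1 TPM in at least 3 libraries, a mean per group, moderated statistics with a trend and Benjamini-Hochberg adjustment over all of them, with calls at an adjusted p under 0.05. The comparisons of Evi1 HSC share libraries. The members, the 8 pathway and 10 cell type lists and the tests were chosen with earlier results of these data known. Named list genes are paralogues of the 7, genes called in a comparison of Evi1 HSC over 9 libraries and genes whose Evi1 HSC libraries do not overlap the WT libraries. Ldha, Ero1l, Mxi1, Hif1a, P4ha1, Kmt2a, Men1, Klf1 and Hbb-bt were named after their values were seen. Alternatives were a pseudocount of 0.1, no filter or a filter of 5 TPM, rescaled and quantile-normalized values, the replicate number as a block, only the compared groups, 7 libraries, and each library left out. Positions are from GENCODE M21 and promoters from RefSeq.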

Additional observations from a re-analysis of the deposited data

How the results depend on the processing

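The choice of the 7 genes fixed the sign of their differences, so no stability is read from it. The gap to the WT libraries reversed in Bnip3 under quantile normalization (-0.078) and in Ndfip2 without WT KL replicate 1 and over 7 libraries (0.032), where the left-out library was the one that overlapped, while it was -0.45 to -0.22 in Ndfip2 without any other single library. The number of genes called over 9 libraries was small and unstable, and the cause was not tested. Against WT HSC it was 0 at a pseudocount of 0.1, 3 with no filter and 40 over 7 libraries. Against WT KL it was 1 at a pseudocount of 0.1, 6 with no filter, 6 under quantile normalization and 8863 over 7 libraries (6087 higher and 2776 lower, or 3663 and 4014 under quantile normalization). Against the mean of the WT groups it was 1 at a pseudocount of 0.1, 11 with no filter, 2 at 5 TPM, 2 when rescaled, 9 under quantile normalization and 4990 over 7 libraries (3416 higher and 1574 lower, or 2158 and 1995 under quantile normalization). Between WT HSC and WT KL it was 2 with no filter and 7307 over 7 libraries (5203 higher and 2104 lower, or 2999 and 3155 under quantile normalization). Leaving out 1 library of the 9 gave 1 to 3, 2 to 96, 1 to 25 and 1 to 4 calls in these 4 comparisons, and the 96 and the 25 came without WT KL replicate 1. Over 7 libraries, calls against WT HSC were 73 with no filter and 6 with only the compared groups, and leaving out 1 library gave 5 to 27, with 5641 to 8703 against WT KL, 3116 to 4152 against the mean of the WT groups and 4291 to 7324 between WT HSC and WT KL. The 1827 genes not overlapping were 2868 over 7 libraries and 1894 to 3474 with 1 library left out. The replicate numbers do not pair the WT libraries by embryo in replicates 1 and 2. Ddx3y was at 25.3 TPM in WT HSC replicate 1 but at 0 in WT KL replicate 1. It was at 0 in WT HSC replicate 2 but at 14.1 TPM in WT KL replicate 2. Whether the numbers pair the libraries in another way could not be decided by correlating deviations from the group means. Over 9 libraries the correlations were -0.64 to 0.70 for same-numbered and -0.85 to 0.73 for different-numbered libraries. The 2 libraries that go against their labels entered those group means. Over 7 libraries the check says nothing, since the deviations of a pair of libraries mirror each other. With the number as a block, the calls were 1 against WT HSC, 2 against WT KL, 1 against the mean of the WT groups and 1 between WT HSC and WT KL over 9 libraries, and 0, 7526, 3566 and 4947 over 7 libraries. The depth behind TPM is unknown, so nothing can be said of the precision of low values such as those of Adm, which was not tested at the filter of 5 TPM.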
